A study of Mus musculus with 2 samples.

Results

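Described here are 8 very long genes of the mouse that stand among the 10 genes with the most peaks in a BUD31 RNA immunoprecipitation sequencing (RIP-seq) data set. They are Rabgap1l, Auts2, Smyd3, Sdk1, Diaph2, Immp2l, Rasal2 and Cdc42bpa. Together they hold 879 of the 16331 peaks in the list (5.38%) and are 8 of the 3258 genes that it names. They were chosen by their number of peaks, so that number and everything else measured on their peaks is given as a description, with no test. The other 2 genes of those 10 are Spag16 with 108 peaks and Dnah14 with 81. Cdc42bpa, with 77, stands just inside the limit, and Nhs with 67 and Syt14 with 63 lie just outside it.

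RNA bound to BUD31 was recovered with an antibody from testicular germ cells of C57BL/6J mice aged 14 days after birth. Input RNA of the same kind of cells was sequenced beside it. Whether the peaks were called against that input is not stated. Both libraries carry the same strain, tissue, age and treatment in their labels, the treatment being digestion of the testis by enzymes to single cells, and differ in name by the antibody step. There was 1 library of each kind, so no value has a replicate check. Of 7 genes that mark meiotic germ cells 6 had a peak (Dmc1 had none), as did Kitl and Wt1 of 8 genes that mark somatic cells of the testis. Of the other 6 somatic genes, 5 lie on chromosomes 11, 17 and 19, where at most 3.02% of coding genes had one. Of all coding genes on chromosomes with peaks 18.8% had one, and on chromosomes 10, 5, 1 and X, which hold 4 of those 6 meiotic genes, 30.4% to 48.6% did. A peak is not a level, and the contrast between the marker lists was not tested. The sources used here do not say whether animals were pooled. The deposited values are peak positions on mm10 with an annotation class and a transcript, and neither library's depth nor the strength of any peak is known. Peak edges fall on a grid of 200 bp on chromosome 5, 205 bp on chromosomes 1 and 12, and 230 bp on chromosome X, which limits every width and distance below.

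BUD31 is a protein of the spliceosome, the machine that cuts introns out of newly made RNA. Introns are present in RNA that has not yet been spliced and, briefly, as released pieces, and in long genes they make up nearly all of the transcribed length. A protein that sits on the spliceosome can therefore be recovered with intron RNA as well as with exon RNA. The list gives no strand, so sense and antisense RNA cannot be told apart.

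The genes encode proteins of several kinds. RABGAP1L is a GTPase-activating protein of the Rab switches of membrane traffic, and RASAL2 is one for Ras. DIAPH2 is a formin, which nucleates actin filaments, and CDC42BPA is a kinase that acts downstream of the GTPase CDC42 on the actin and myosin skeleton. SMYD3 is a lysine methyltransferase with a SET and a MYND domain. AUTS2 is a nuclear regulator of transcription known mainly from neurons, where it works with a Polycomb complex. SDK1 is an adhesion molecule of the immunoglobulin family known from synapses of the retina. IMMP2L is a peptidase subunit of the mitochondrial inner membrane, and mice with a mutant Immp2l have impaired fertility.

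Of these genes, 4 lie on chromosome 1. Rabgap1l (chr1:160219174-160793476, minus strand) spans 574 kb, Smyd3 (chr1:178951960-179518053) 566 kb, Rasal2 (chr1:157135183-157412595, minus strand) 277 kb and Cdc42bpa (chr1:179960079-180165606, plus strand) 206 kb. On chromosome 5 Auts2 (chr5:131437333-132543220) spans 1106 kb and Sdk1 (chr5:141241497-142215586, plus strand) 974 kb. Immp2l (chr12:41024061-41955588, plus strand) spans 932 kb, and the X-linked Diaph2 (chrX:129749668-130465834, plus strand) 716 kb. Gene extents are those of RefSeq on GRCm38.p6, the mm10 assembly. The tables used here give no strand for Auts2 and Smyd3, so their ends are named by coordinate.

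The 6 genes with an annotated start site have 7 promoter windows, each taken as 250 bases before the start and 50 from it. Of these 7 windows, 1 was reached by a peak. This was a 205 bp peak of Cdc42bpa annotated as 5′ UTR, at chr1:179961096-179961300, which begins 7 bp past the second of the 2 RefSeq starts. Of 6561 such windows on chromosomes 1, 5, 12 and X, 418 (6.37%) overlapped a peak of the list. The nearest peak of Diaph2 began 389 bp past the start and that of Rasal2 475 bp past it. In Sdk1 and Rabgap1l the nearest peaks lay 3.27 kb and 3.44 kb into the gene. In Immp2l the distance was 86.8 kb. The start of Cdc42bpa is shown because a peak lies in its window, 7 bp past the start, with the bases under the peak in capitals, and the starts of Diaph2, Rasal2 and Immp2l because they bracket the distances. All are from RefSeq on GRCm38.p6, 5′ to 3′, and end 30 bases into the transcript.
Cdc42bpa, chr1:179960839-179961118, plus strand: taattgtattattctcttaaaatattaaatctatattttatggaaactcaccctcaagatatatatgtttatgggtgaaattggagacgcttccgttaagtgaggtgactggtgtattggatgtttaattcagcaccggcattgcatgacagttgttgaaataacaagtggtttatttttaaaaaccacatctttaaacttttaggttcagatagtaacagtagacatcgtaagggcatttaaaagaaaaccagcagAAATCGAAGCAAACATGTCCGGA
Diaph2, chrX:129749682-129749771, plus strand: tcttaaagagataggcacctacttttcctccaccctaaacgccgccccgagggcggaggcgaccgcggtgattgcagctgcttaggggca
Rasal2, chr1:157412566-157412655, minus strand: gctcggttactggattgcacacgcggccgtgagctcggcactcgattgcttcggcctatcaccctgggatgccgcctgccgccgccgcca
Immp2l, chr12:41024030-41024119, plus strand: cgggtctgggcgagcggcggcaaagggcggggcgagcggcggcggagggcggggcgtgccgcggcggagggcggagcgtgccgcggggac

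The Cdc42bpa window that the peak reaches differs in base composition from the other 3 shown. Over its full 300 bases, of which 43 lay under the peak, this window held 34.7% G and C with 7 CG pairs. The Diaph2 window held 58.7% with 20 CG pairs, the Rasal2 window 63.3% with 31, and the Immp2l window 68% with 32. Over all 6561 windows the medians were 52.7% and 7 CG pairs. The windows of Rabgap1l and Sdk1 held 73.3% and 78.3%, and no peak lay on them. The window of the other Cdc42bpa start, also without a peak, held 45.7% with 11 CG pairs.

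A high number of peaks went with very different shares of the gene. Diaph2, with 100 peaks, had 63.9% of its span under a peak, the highest of the 8. Rabgap1l followed with 50.9% under 154 peaks, Rasal2 with 49.1% under 90, Immp2l with 41.7% under 92 and Cdc42bpa with 36.5% under 77. In Smyd3 126 peaks covered 15.5%. Auts2 had the second highest number, 135, and 9.46% of its span covered, and in Sdk1 105 peaks covered 5.77%. The order by coverage therefore differs from the order by number, and the 2 genes of chromosome 5 stand at its lower end.

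Peaks per 100 kb were highest in the 2 shortest genes. The rule took genes by number of peaks, so a short gene needed a high density to enter. That order was therefore partly fixed in advance. Cdc42bpa had 37.5 peaks per 100 kb and Rasal2 had 32.4, while Rabgap1l had 26.8 and Smyd3 22.3. The genes on the other chromosomes had fewer: 14 per 100 kb in Diaph2, 12.2 in Auts2, 10.8 in Sdk1 and 9.88 in Immp2l. All 4 genes of chromosome 1, which are also the 4 shortest, lie above the 4 on other chromosomes in density. Diaph2 and Immp2l reach their coverage with few, wide peaks.

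**Figure D1:**
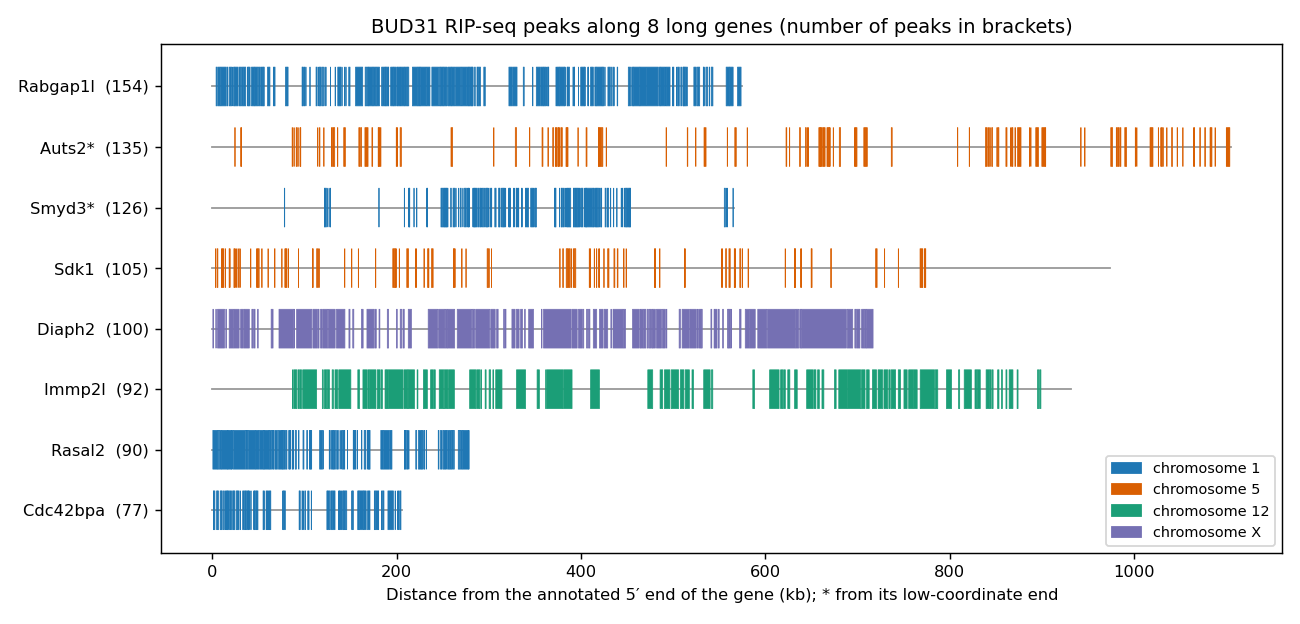
Peaks of the 8 genes drawn to scale along the gene, in kb from its 5′ end, or from its low-coordinate end for the genes with an asterisk, coloured by chromosome. A hairline outline adds slightly to the drawn width of each peak. Diaph2, with 63.9% of its span covered, is nearly filled in places, while the 105 peaks of Sdk1 cover 5.77% and stop about 200 kb before its 3′ end.

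Width separated Diaph2 and Immp2l from the rest. Immp2l had the widest typical peak, with a median of 2870 bp (quartiles 1640 and 5022 bp), and Diaph2 followed at 2300 bp (1150 and 5578 bp). Rabgap1l had a median of 1230 bp (410 and 2665 bp). The other medians were 615 bp in Rasal2 and in Cdc42bpa, 600 bp in Auts2, 410 bp in Smyd3 and 400 bp in Sdk1. The 8 genes together had a median of 820 bp, against 1400 bp over all peaks of the list.

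The chromosomes themselves differ in width, so each gene was set beside its own. The median over all peaks was 2255 bp on chromosome 12 and 1840 bp on chromosome X, where Immp2l and Diaph2 lie, and both genes were above it. On chromosome 1, at 1025 bp, Rabgap1l was above the median and Smyd3, Rasal2 and Cdc42bpa were below. On chromosome 5, at 800 bp, Auts2 and Sdk1 were both below.

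Peaks of a single grid step, the narrowest the list can hold, made up 23.9% of the peaks of the 8 genes (210 of 879), against 12.9% of all peaks. Sdk1 had 41 of them (39%) and Smyd3 had 49 (38.9%). Rasal2 had 28 (31.1%), Auts2 37 (27.4%), Rabgap1l 36 (23.4%) and Cdc42bpa 16 (20.8%). On chromosomes 5 and 1 the share over all peaks was 20.6% and 20.1%. Diaph2 had 3 (3%), close to the 3.08% of chromosome X, and Immp2l had 0 of 92, on a chromosome where the share was 7.8%. Its narrowest peak was 615 bp.

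At the other end, 69 peaks of the 8 genes (7.85%) were 5 kb or wider, against 13.4% of all peaks. That share is not matched for chromosome. The median width was 1025 bp on chromosome 1 and 800 bp on chromosome 5, against 1400 bp over all peaks. Diaph2 held 28 of the 69 peaks, Immp2l 23, Rabgap1l 11, Rasal2 5, and Smyd3 and Cdc42bpa 1 each, while Auts2 and Sdk1 held none. The widest was an intron peak of Diaph2 of 48990 bp (chrX:130388611-130437600), centred at 92.6% of the gene from its 5′ end. It is followed by Diaph2 peaks of 30360 bp (chrX:130352041-130382400) and 29900 bp (chrX:130108931-130138830). The widest of Immp2l was 17425 bp (chr12:41387041-41404465), that of Rasal2 13530 bp (chr1:157376451-157389980) and that of Rabgap1l 12300 bp (chr1:160310001-160322300). In Auts2 the widest was 3800 bp and in Sdk1 2200 bp.

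A few wide peaks carried much of the coverage in some genes. In Diaph2 the 14 widest of 100 peaks held 50% of the covered length, and in Rasal2 the 13 widest of 90 did. The corresponding numbers were 19 of 92 in Immp2l, 15 of 77 in Cdc42bpa and 29 of 154 in Rabgap1l. In Auts2 it took 29 of 135 peaks, in Smyd3 25 of 126 and in Sdk1 24 of 105.

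**Figure D2:**
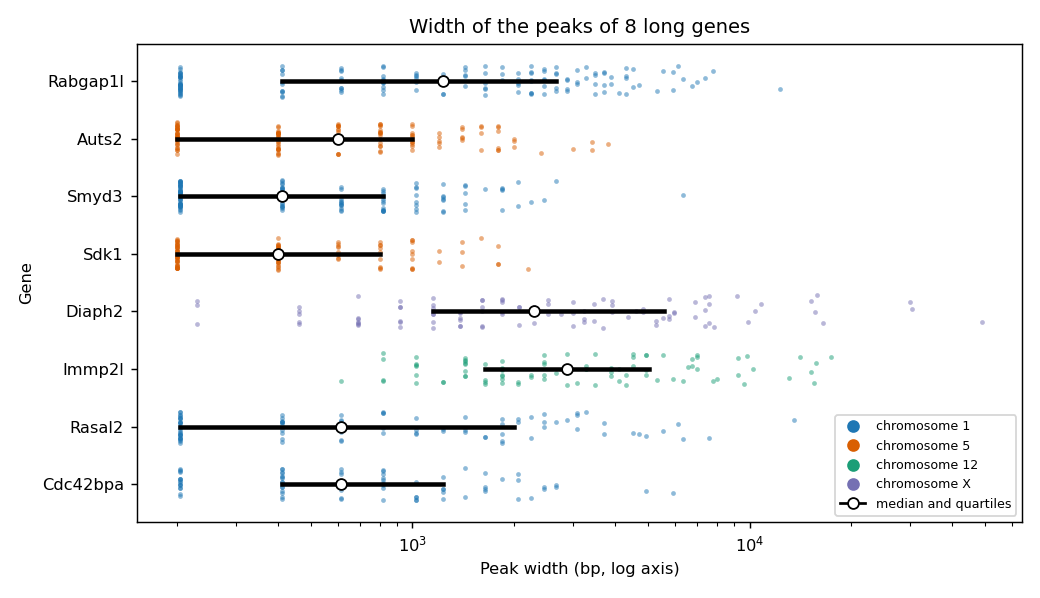
Width of every peak of the 8 genes in bp on a log axis, with 1 point per peak, the median as an open circle and the quartiles as a bar. The medians of Diaph2 (2300 bp) and Immp2l (2870 bp) lie above those of the other genes, and the points of Sdk1 end at 2200 bp.

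Within each gene peaks were unevenly spaced. Gaps were measured from the end of a peak to the start of the next of the same gene. The smallest gap was 1 grid step in all 8 genes, so peaks with a single empty step between them were left unjoined. The median gap was 615 bp in all 4 genes of chromosome 1. It was 1380 bp in Diaph2, 1845 bp in Immp2l, 2800 bp in Sdk1 and 3000 bp in Auts2. The mean gap exceeded the median in each gene, by a factor of 1.89 in Diaph2, 2.43 in Auts2, 2.45 in Sdk1, 2.53 in Immp2l, 2.58 in Rasal2, 2.75 in Cdc42bpa, 2.95 in Rabgap1l and 5.2 in Smyd3.

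Gaps of at most 1 kb made up 47% of all 871 gaps. They were most common in the 4 genes of chromosome 1, with 60.7% in Rasal2, 60.5% in Cdc42bpa, 58.8% in Rabgap1l and 58.4% in Smyd3. Over 22 other coding genes of at least 200 kb on that chromosome, with at least 10 peaks, the median share was 29.7% and the highest 58.3%. The median of their median gaps was 1948 bp, against 615 bp in these 4 genes. The rule took genes with many peaks, so this difference was not tested. The share was 39.4% in Diaph2, 37.3% in Auts2, 33.7% in Sdk1 and 24.2% in Immp2l. The SD of the gaps, divided by their mean, was 1.21 in Diaph2, the lowest of the 8, and 3.49 in Smyd3. It was 1.65 to 1.77 in Sdk1, Rasal2, Immp2l, Auts2, Rabgap1l and Cdc42bpa. Over 66 other coding genes of at least 200 kb with at least 10 peaks, on the same 4 chromosomes, the median was 1.45. Their range was 0.907 to 3.35.

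**Figure D3:**
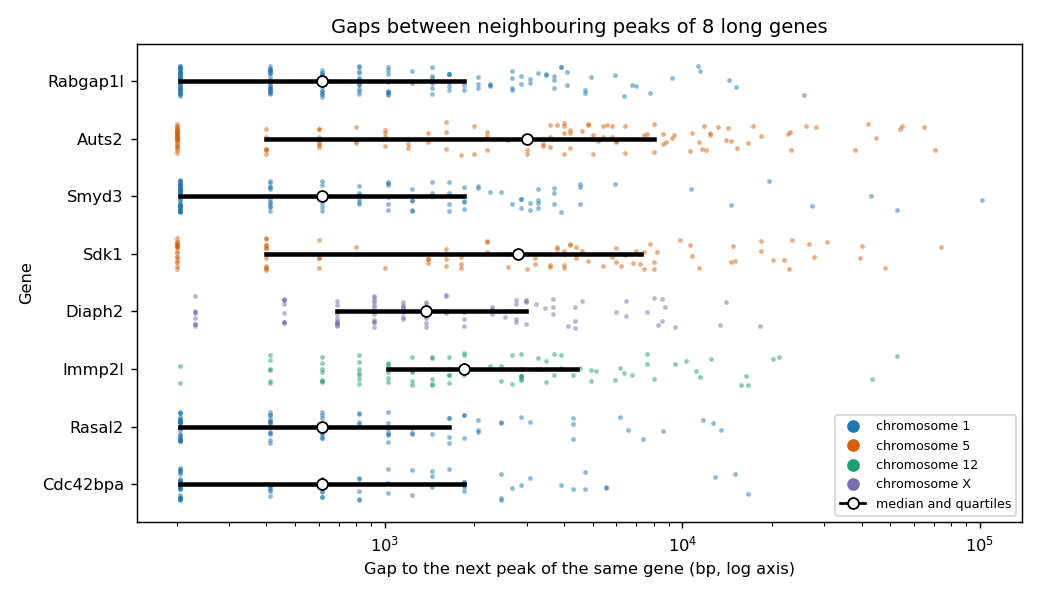
Gap from each peak to the next of the same gene in bp on a log axis, with 1 point per gap, the median as an open circle and the quartiles as a bar. The 4 genes of chromosome 1 share a median of 615 bp, and the longest gap is the 102 kb stretch of Smyd3.

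When peaks at most 2 kb apart were joined, the 879 peaks formed 322 clusters, of which 151 held a single peak. Cdc42bpa formed 16 clusters with 1 lone peak and Rasal2 18 with 6, whereas Auts2 formed 74 with 45 lone peaks and Sdk1 61 with 35. Smyd3 formed 30 clusters, Diaph2 38, Rabgap1l 39 and Immp2l 46. The cluster with the most peaks was in Rasal2, with 26 peaks over 80.4 kb (chr1:157331761-157412120), 86% of which was covered. It begins with the peak nearest to the 5′ end of the gene. In Smyd3 22 peaks formed a cluster of 30.8 kb (chr1:179343636-179374385), and in Rabgap1l 19 peaks formed a cluster of 52.9 kb (chr1:160502496-160555385) near the middle of the gene. A second Rabgap1l cluster of 19 peaks spans 52.3 kb (chr1:160737221-160789495) at its 5′ end. The largest cluster of Cdc42bpa, of 18 peaks over 29.3 kb, begins with the peak in the promoter window shown above. Clusters in Sdk1 and Immp2l held at most 6 and 5 peaks.

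Long stretches without a peak named for the gene lay inside some of them. The longest was in Smyd3, 102 kb (chr1:179405751-179507430). Sdk1 had an inner gap of 74 kb (chr5:141544401-141618400), Auts2 of 70.8 kb (chr5:132175001-132245800) and Immp2l of 52.5 kb (chr12:41444031-41496510). The Immp2l gap holds 2 peaks of the nested gene Lrrn3. In Rabgap1l the longest gap was 25.6 kb, in Diaph2 18.2 kb, in Cdc42bpa 16.6 kb and in Rasal2 13.5 kb.

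Toward the gene ends the genes differed from each other. Each gene was cut into 10 segments of equal length, numbered from its 5′ end, or from its low-coordinate end in Auts2 and Smyd3. Segments 1 and 10, 20% of the span, held 157 of the 879 peaks (17.9%). They were covered to 25.7%, against 30.9% in the 8 segments between them. Rasal2 was more covered at its ends than in its middle, 77.6% against 42%, as was Cdc42bpa, 48.7% against 33.5%. Diaph2 had 69.1% at its ends against 62.6% in its middle, and Rabgap1l 52.3% against 50.6%. Immp2l and Smyd3 went the other way, with 11.6% against 49.2% and 1.63% against 18.9%. Auts2 had 7.87% against 9.86%, and Sdk1 6.06% against 5.7%.

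In Rasal2 the 5′ part was the most heavily covered. Its segment 1 was covered to 87.9%, segment 2 to 91.1% and segment 3 to 71.2%, while segment 8 had 15.6%. Segment 10 stood at 67.2%, with a peak of 5535 bp over the 3′ UTR (chr1:157135166-157140700). By the peaks named for it, Cdc42bpa was emptiest in its middle, with 12% in segment 5 and 4.99% in segment 6. Segment 1 had 51.9% and segment 7 had 53.9%. A gap between its peaks that reaches into segment 5 (chr1:180039201-180054165) holds 2 peaks named for the noncoding LOC108167749.

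Sdk1 had 25 of its 105 peaks in segment 1, more than in any other, and 0 in segments 9 and 10. Its last peak ends at position 142015600, and the 200 kb from there to the annotated 3′ end hold no peak of the list. The coverage of segment 1 was 12.1%, also its highest. Immp2l was empty at its 5′ end, where 86.8 kb precede the first peak. Its segment 1 held 2 peaks and 4.57% coverage, against 65.2% in segment 2, and the last 32.5 kb of the gene were empty. Segments 1 and 10 held 13% of its peaks. With the extent taken from the first to the last peak, which leaves those empty ends out, its end zones held 28.3%, above their 20% of the span.

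Smyd3 had its peaks in the inner part of the gene. The stretch between its 2 longest gaps (chr1:179132486-179405750), singled out after its values were seen, is 48.3% of the span and held 116 of the 126 peaks (92.1%). It was covered to 30.2%. The 78 kb at the low-coordinate end held none, and segments 1 to 4 held 0, 1, 5 and 7 peaks, with at most 4.71% coverage in any of them. Auts2 was uneven on a finer scale, with 3 peaks in segment 3, 22 in segment 4, 5 in segment 5 and 23 in segment 10.

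Diaph2 was covered along its whole length. Its least covered segment, number 3, stood at 31.3%, and segment 10 at 91%, with 7 peaks. A peak of 7360 bp annotated as 3′ UTR (chrX:130459221-130466580) runs over the annotated 3′ end by less than 1 kb. Rabgap1l ranged from 17.8% in segment 2 to 79.7% in segment 5, with no empty segment.

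**Figure D4:**
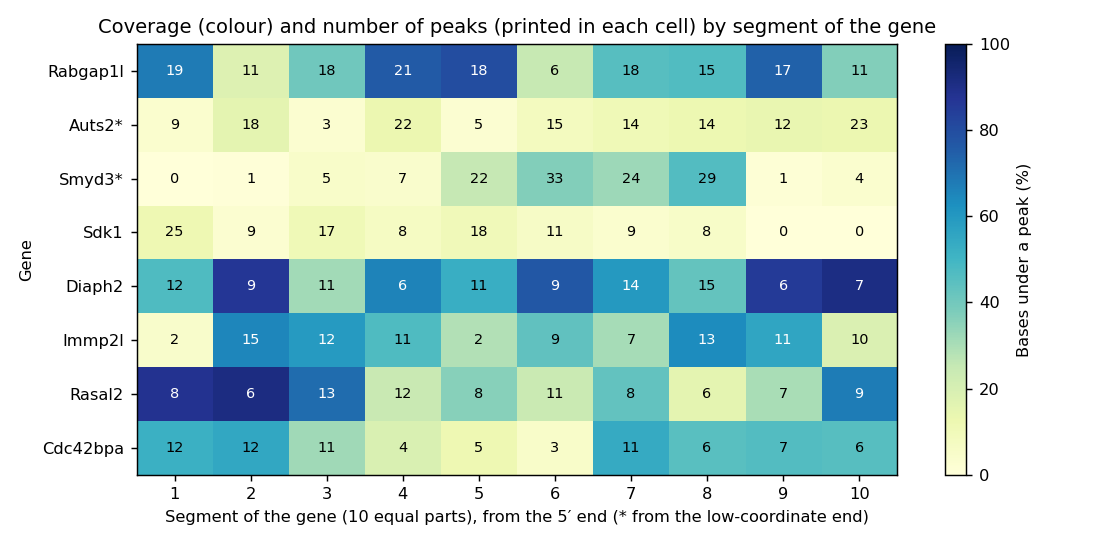
Each gene cut into 10 equal segments from its 5′ end, or from its low-coordinate end for the genes with an asterisk, with the percentage of bases under a peak as colour and the number of peaks printed in the cell. Segments 9 and 10 of Sdk1 and segment 1 of Smyd3 hold 0 peaks, and segment 10 of Diaph2 is covered to 91%.

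Each gene was more covered than the 200 kb on either side of it, and how far out peaks fell off was not measured. In the 200 kb on either side of Auts2, Sdk1 and Immp2l the list held 0 peaks of any gene. Around Diaph2 the flanks held only the part of its own last peak that runs over the 3′ end. Rasal2 had 0 peaks in its 5′ flank, and its 3′ flank was covered to 0.624%, by its own downstream peaks and those of Ralgps2 and Gm30694. In Smyd3 the low-coordinate flank had 0 peaks and the other was covered to 4.41%, by peaks of Tfb2m and Sccpdh. With the peaks of all genes counted, Rabgap1l was covered to 51.2%, against 17.1% in its 5′ flank, from Rc3h1 and Serpinc1, and 4.71% in its 3′ flank, from Cacybp and Mrps14. Cdc42bpa was covered to 38.5%, against 12.9% in its 5′ flank, from Ahctf1, and 0.307% in its 3′ flank.

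Nearly all peaks were annotated as intron. This held for 862 of the 879 (98.1%), against 81.8% of all peaks. The whole list also holds intergenic peaks (6.72%), and introns make up nearly all of the length of long genes. The difference was therefore partly fixed by the choice of genes. In Auts2, Sdk1 and Immp2l it was every peak, 135, 105 and 92. The other 17 were 7 peaks in 5′ UTRs, 5 in 3′ UTRs, 3 in exons and 2 downstream. Each peak carries a single class, so a wide intron peak can also cover exons, and no exon annotation was used here to separate them.

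Rabgap1l held 6 of the peaks outside introns. Its widest peak, 12300 bp, and a peak of 2050 bp beside it (chr1:160307131-160309180) were annotated as 5′ UTR of the transcript XM_006496883.3, at 83.1% and 84.5% of the gene from its 5′ end. A peak of 3895 bp (chr1:160219801-160223695) lay on a 3′ UTR at 99.6%. In Cdc42bpa 2 of its 3 5′ UTR peaks, 410 and 205 bp wide, were assigned to XM_017320148.1 at 50.5% and 50.9% of the gene, in its thinly covered middle. Smyd3 had 1 such peak, of 205 bp (chr1:179374181-179374385), at the edge of its largest cluster. Rasal2 had a 3′ UTR peak, 1 exon peak of 205 bp (chr1:157158741-157158945), 1 5′ UTR peak of 205 bp and 2 downstream peaks.

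The 879 peaks named 28 transcripts. Curated models (prefix N) took 413 peaks and predicted models (prefix X) 466. Auts2 and Sdk1 had a single transcript each, NM_177047.3 and NM_177879.5, both curated. All 126 peaks of Smyd3 were on predicted transcripts, 119 of them on XM_011238864.2 and 7 on XM_006496982.3. Cdc42bpa was also assigned only to predicted transcripts, 7 in number, with 57 of 77 peaks on XM_011238802.2. Diaph2 had 88 peaks on XM_006528581.3, 11 on XM_006528582.3 and 1, its 3′ UTR peak, on the curated NM_172493.2.

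In some genes the transcript changed with position. The peaks of Diaph2 assigned to XM_006528582.3 all end by position 129799350, and those of XM_006528581.3 begin at 129813381. In Immp2l the 42 peaks on the curated NM_053122.4 lie between 41110906 and 41444030, and the 50 on 2 predicted transcripts begin at 41496511, beyond the nested gene Lrrn3. Rabgap1l had 123 peaks on NM_013862.5 and 21 on XM_006496879.3, those 21 all within chr1:160580396-160627750. Of the 28 transcripts 22 are also in the RefSeq table used for gene extents, by accession without version. The single Auts2 transcript is not among them, so the annotation behind the list and that table differ.

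Other genes overlap these 8. The reference table places 25 there, counted by any overlap, and a peak lay on 17 of them. They were 7 of 11 long noncoding RNA genes, 6 of 7 pseudogenes, 3 of 3 coding genes, 1 of 2 small nucleolar RNA genes, 0 of 1 small nuclear RNA gene and 0 of 1 microRNA gene. Of the 10429 genes of any kind on chromosomes 1, 5, 12 and X 21.5% had a peak on them, with 11.3% of long noncoding RNA genes, 5% of pseudogenes and 41.8% of coding genes. Genes that lie within these 8 came with their peaks, so nothing is read from the difference. Coq8a (chr1:180165238-180196020), a coding gene, overlaps only the 3′ end of Cdc42bpa, and its 3 peaks, named Adck3 in the list, lie outside Cdc42bpa. Lrrn3, a leucine-rich repeat gene inside Immp2l (chr12:41451668-41486057), was covered to 97.2% by 2 peaks named for it. Gpr52, a receptor gene inside Rabgap1l (chr1:160574717-160579704), was covered to 58.9%, by 1 peak named for it and 1 named for Rabgap1l. In Smyd3 16 peaks lay on the noncoding Gm31349 (chr1:179297383-179328064), of which 7 were named for Smyd3 and 9 for Gm31349 or LOC108167846. Without strand, these reads cannot be assigned to either gene, and the count of 126 for Smyd3 leaves those 9 out.

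Pseudogenes lay under peaks of Immp2l, Rasal2, Diaph2 and Sdk1. Gm19048 and Gm6058 in Rasal2 and LOC115489134 in Diaph2 were each covered to 100%, and Gm4274 in Immp2l (chr12:41116217-41146574) to 67.5%, by 5 Immp2l peaks. The microRNA gene Mir1927 in Rabgap1l and the small nuclear RNA gene Gm24131 in Sdk1 had no peak. In Rabgap1l the small nucleolar RNA gene Gm23528 was touched by a peak over 9.85% of its length. Reads of pseudogenes can be shared with their parent genes, so these overlaps are uncertain.

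Numbers skipped in the list bear on every gap above. Peaks carry a running number, and those absent from the list belong to a longer numbered set. Between the first and the last peak of Diaph2 the list holds 100 of 117 numbers (85.5%), and in Immp2l 95 of 123 (77.2%). It holds 80 of 148 (54.1%) in Cdc42bpa, 155 of 293 (52.9%) in Rabgap1l and 90 of 170 (52.9%) in Rasal2. In Smyd3 it holds 135 of 381 (35.4%), in Sdk1 107 of 380 (28.2%) and in Auts2 137 of 507 (27%). Auts2 and Sdk1, the genes with the lowest coverage, thus also had the lowest share of numbers left. Over whole chromosomes the share was 66.8% on X, 42.4% on 12, 29.9% on 1 and 27.6% on 5. Why some numbers are in the list and others are not is unknown here.

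Long gaps were mostly gaps with skipped numbers. A pair that skips leaves room for a further numbered interval between its peaks, so part of this difference was fixed in advance. Numbers kept in the list under another gene count as skipped here. There were 9 of these in Smyd3, 2 each in Auts2 and Sdk1, and 0 in Diaph2. In Auts2 the median gap was 200 bp between the 51 pairs of neighbours with consecutive numbers and 5800 bp between the 83 pairs that skip. In Sdk1 these were 400 bp over 35 pairs and 5400 bp over 69, and in Smyd3 205 bp over 76 pairs and 2460 bp over 49. In Diaph2 85 of 99 pairs were consecutive, with a median gap of 1150 bp, against 6210 bp for the other 14. The 102 kb gap of Smyd3 skips 52 numbers and the 70.8 kb gap of Auts2 skips 18. By contrast the 74 kb gap of Sdk1 skips 11 and the 14 kb gap of Diaph2 (chrX:129799351-129813380), between its 2 predicted transcripts, skips 0. A gap that skips numbers is not shown to be a stretch with no numbered interval.

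The 8 genes were then set beside other long genes. On chromosomes 1, 5, 12 and X there are 234 coding genes of at least 200 kb, of which 114 (48.7%) have at least 1 peak and 74 (31.6%) at least 10. The 8 genes had 77 to 154 peaks with a median of 102, and the 66 other genes with at least 10 had 10 to 108 with a median of 29. Their span was also longer, with a median of 645 kb, against 281 kb. The median coverage was 39.1% in the 8 genes, against 31.8% in the others, which ran from 0.291% to 81.8%. The rule fixed the difference in number, and since coverage comes from the same peaks no test was made.

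By chromosome the picture was mixed. Diaph2, at 63.9%, compares with a median of 35.4% and a highest value of 73.7% over 21 other such genes on the X chromosome. Immp2l, at 41.7%, lies close to the 39.9% median of 15 genes on chromosome 12. Auts2 and Sdk1, at 9.46% and 5.77%, lie to either side of the 8.52% median of 8 genes on chromosome 5, where the highest was 19.6%. The 4 genes of chromosome 1 had a median of 42.8%, against 19% over 22 others. In typical width Auts2 and Sdk1, at 600 and 400 bp, lie below the 1350 bp median of those 8 genes, and Immp2l, at 2870 bp, close to the 2972 bp of its 15.

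**Figure D5:**
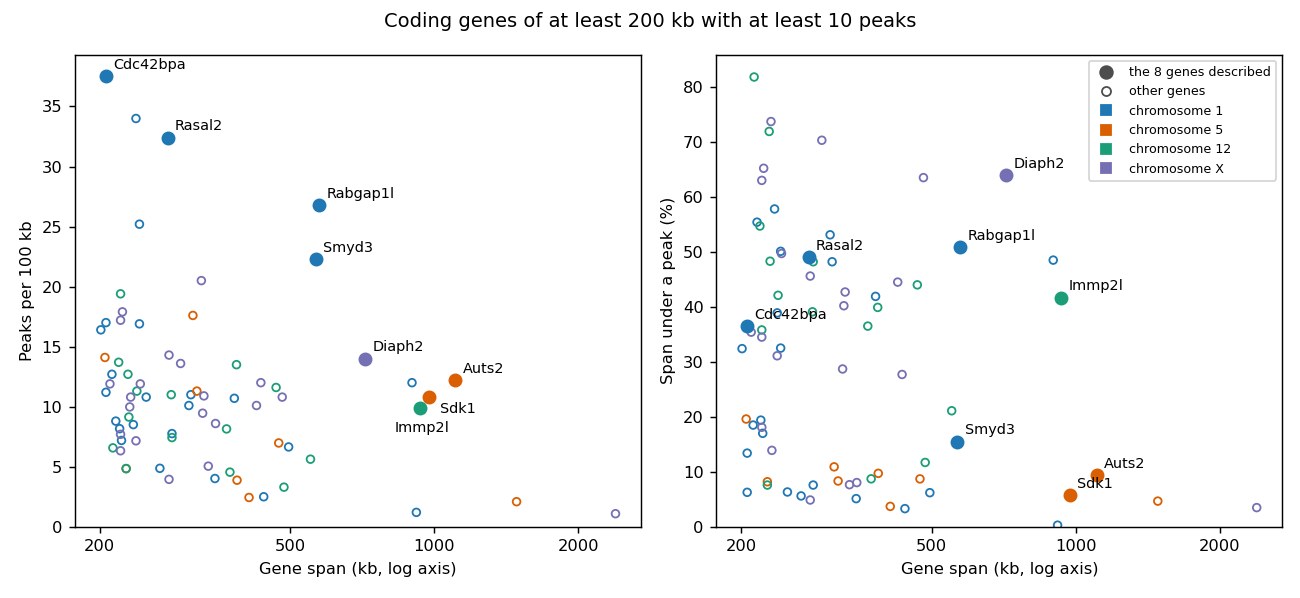
Coding genes of at least 200 kb with at least 10 peaks on chromosomes 1, 5, 12 and X by span in kb on a log axis, against peaks per 100 kb on the left and percentage of the span covered on the right. The 8 genes described are filled and the 66 others open. Cdc42bpa has the highest density, 37.5 per 100 kb, while Sdk1 at 5.77% coverage lies near the lower edge of the right plot.

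Many long genes had no peak. Of the 234 coding genes of at least 200 kb, a floor below the 645 kb median span of the 8 genes, 120 had none. Among them are the longest without a peak on each of the 4 chromosomes: Dpp10 on chromosome 1 (1514 kb), Dpp6 on chromosome 5 (910 kb), Nrxn3 on chromosome 12 (1612 kb) and Il1rapl1 on the X chromosome (1375 kb). These exceed the span of every member on the same chromosome except on chromosome 5, where Auts2 and Sdk1 are longer than Dpp6. Dpp10 and Dpp6 encode subunits of neuronal potassium channels, and Nrxn3 and Il1rapl1 encode synaptic proteins. The next in length without a peak were Thsd7b and Sntg1 on chromosome 1, Adgrl3 and Arhgap24 on 5, Hdac9 and Npas3 on 12, and Il1rapl2 and Frmpd4 on X. The input's expression levels are unknown, so genes could not be matched on expression.

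For each gene the closest in pattern was sought on its own chromosome, among genes with at least 10 peaks, by coverage and peaks per 100 kb on a log10 scale. For both Rasal2 and Rabgap1l this was Rc3h1, an RNA-binding ubiquitin ligase gene in the 5′ flank of Rabgap1l, with 22 peaks over 68.6 kb, 32.1 per 100 kb and 49% covered. Cdc42bpa was closest to Gpatch2, with 59 peaks, 37.6 per 100 kb and 36.6%. Smyd3 was closest to Atf6, a sensor of unfolded proteins, with 36 peaks and 16.7%. Diaph2 was closest to the chromatin remodeller gene Atrx, with 19 peaks and 66.8%, and Immp2l to Ccdc88c, with 13 and 43.7%. Auts2 was closest to Lmtk2, with 11 and 10.5%, and Sdk1 to N4bp2l2, with 10 and 6.38%. All of these are shorter, at 65.8 to 164 kb.

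Relatives of the 8 genes had a peak in 6 of 15 cases on chromosomes with peaks, against 18.8% of 14867 coding genes there. The list of 19 relatives holds Rabgap1, Evi5 and Evi5l for Rabgap1l, Fbrs and Fbrsl1 for Auts2, 4 Smyd genes, Sdk2, Diaph1 and Diaph3, Immp1l, 4 Ras GTPase-activating protein genes, and Cdc42bpb and Cdc42bpg. Where 10% or more of a chromosome's coding genes had a peak 6 of 7 relatives had one, against 35.7% of 7352 coding genes there, and on the remaining chromosomes 0 of 8. These shares were not matched for gene length, and no test was made. Of coding genes of at least 200 kb on chromosomes 1, 5, 12 and X 48.7% had a peak. Fbrs, Smyd1, Smyd5 and Diaph3 lie on chromosomes that the list does not hold, and were not analysed here.

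No relative had more than 10 peaks. Evi5, a GTPase-activating protein gene of the Rab family, had 10 that covered 14.3% of its 130 kb. Diaph1, the formin next of kin to Diaph2, had 7 that covered 41.7% of 92 kb, with a median width of 4600 bp. Fbrsl1, an Auts2 paralog, had 7 over 23.3%, and Smyd2, a methyltransferase gene like Smyd3, had 7 over 13.2%. Cdc42bpb had 3 over 7.12% and Evi5l had 1 over 3.85%. Rasal1 was the relative without a peak on a well covered chromosome, chromosome 5, and at 31.6 kb the shortest relative on such chromosomes. In peaks per 100 kb Smyd3 had 22.3 against 16.7 in Smyd2, Diaph2 had 14 against 7.61 in Diaph1, and Cdc42bpa had 37.5 against 3.47 in Cdc42bpb. The rule took the 8 genes for their number of peaks, so higher values than in relatives were partly fixed in advance.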

How the data were processed

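The series holds 1 RIP-seq library of BUD31, 1 input library and 1 peak list. Per the submitters' processing notes, TopHat2 2.0.13 and the mm10 build were used. How peaks were called, from which threshold, against which background and with which gene models is not stated. The list deposited by the authors holds, per the file headers, a number, chromosome, start, end, class, transcript and gene for each peak, with no count, score or p-value, so depth and precision are unknown. Genes were matched by gene number to RefSeq on GRCm38.p6 (3216 of 3258 matched). A peak belonged to the gene the authors named, and its position was that of its middle. Promoter windows and strands came from the RefSeq promoter table, which held 6 of the 8 genes. Coverage, gaps and segments were computed with Python 3.11.15, numpy 2.4.6 and pandas 2.3.3, and checked on simulated data with known answers. Overlaps needed at least 1 bp. Named were the 8 genes, the other 2 of the 10, the next 3, the closest gene in pattern, relatives, overlapping genes and the longest genes without a peak. A gene that this rule would name is not reported here. Members and lists were chosen with earlier results of these data known. Figures used matplotlib 3.10.9.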

Additional observations from a re-analysis of the deposited data

How the results depend on the processing

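Keeping intron peaks only, or any peak that overlaps the gene, left every pooled value near the reported one. Keeping only peaks at least as wide as their chromosome's median left 383 of 879 peaks by construction, with a median width of 2255 bp, a median gap of 2760 bp and 27.7% of gaps at most 1 kb. Joining peaks at most 1 kb apart left 470. Measured between peak middles the median spacing was 3075 bp. The share in the end zones was 34% with zones of 20% of the span at each end, and 21.5% when the extent ran from the first to the last peak, the 20% zones being wider by construction. For Immp2l this extent moved the share in the end zones to 28.3%, against 13% as reported. Clusters numbered 154 when joined at 5 kb and 87 at 10 kb. Of 216 values recomputed per gene, 137 stayed within a 95% binomial interval or within 1.5 times, and 79 moved beyond. Those intervals treat each peak or gap of a gene as independent, though the peaks come from 1 list and were unevenly spaced. Some settings also moved values by construction, so the tally does not measure robustness. Of the 48 values with wide peaks only, 35 moved. No paired analysis was possible because there is 1 library per group. Depth is unknown and positions resolve to 1 grid step.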
